A study of Mus musculus with 2 samples.

Results

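Mesothelial cells form the thin sheet that covers the surface of the liver, and they were picked out here among single liver cells of fibrotic mice by 6 marker genes. A cell barcode with at least 500 unique molecular identifiers (UMIs, each standing for 1 captured RNA molecule), at least 300 genes and under 20% mitochondrial UMIs was kept. It was called a member if at least 2 of Msln, Upk3b, Upk1b, Gpm6a, Wt1 and Lrrn4 had a UMI and neither Cd79a nor Cd3e, genes of the B cell and T cell antigen receptors, had any. The members were thus selected on UMI counts of these genes in the same cells, and those counts are given below as description only. This gave 149 members of 20753 kept barcodes. The mice had fibrosis induced with carbon tetrachloride (CCl4), a toxin that injures hepatocytes, in both groups, and 1 group also received indole propionic acid (IPA), a tryptophan product of gut bacteria. Each of the 2 groups, CCl4 and CCl4+IPA, has 1 droplet library of dissociated liver, and there is no group without CCl4. Strain, age, doses, timing and the number of animals pooled into a library are not stated in the labels. With 1 library per group there is no replicate error and no test was run: every interval is a 95% exact interval and covers counting error only, and a difference compares these libraries, not the conditions.

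The mesothelium is a single layer of cells that shares features of epithelium and connective tissue. It carries keratins, the glycoproteins mesothelin and mucin 16, and a glycocalyx that lets organs slide past each other, and it depends on the transcription factor Wt1. Mesothelial cells also secrete complement proteins, protease inhibitors and matrix, and in injured liver they have been described as a source of fibroblast-like cells.

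The CCl4 library held 10427 barcodes and 45009730 UMIs, of which 10294 barcodes were kept, and the CCl4+IPA library, called the IPA library below, held 10471 and 37983923, of which 10459 were kept. Median UMIs per kept barcode were 3195 and 2772, and the median mitochondrial share was 3.52% and 1.78%. The libraries share 23 barcode sequences, none of them a member's. In the account below, levels are UMIs summed over the members of a library per 1000000 of their UMIs (CPM), and a ratio is the IPA level over the CCl4 level unless stated the other way round.

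Mesothelial members made up 0.748% of kept barcodes in the CCl4 library (77 barcodes, interval 0.591% to 0.934%) and 0.688% in the IPA library (72 barcodes, 0.539% to 0.866%). The ratio of the shares was 0.920 (0.658 to 1.29), so a difference was not detectable at this depth. The members were deep: they carried a median of 17029 UMIs and 4608 genes in the CCl4 library, and 11738.5 UMIs and 3970.5 genes in the IPA library. The rule reads depth, since a deeper barcode has more chance of a marker UMI. When each kept barcode was thinned to 1000 UMIs, leaving out 602 and 617 shallower ones, the shares were 0.733% and 0.762% (71 and 75 barcodes). Of these, 52 and 59 were also members before thinning. The others entered because thinning can also remove the Cd79a and Cd3e UMIs that the rule excludes.

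Most members passed the rule with room to spare. Among barcodes without Cd79a or Cd3e, all 6 marker genes had a UMI in 45 and 55 barcodes, in the order CCl4 and IPA that is kept throughout. Just inside the rule, with exactly 2 marker genes, there were 12 and 5 barcodes, with median depths of 2843.5 and 832 UMIs. Just outside it, with 1 marker gene, there were 91 and 67. Clustering of all kept barcodes into 26 groups placed 141 of the 149 members in 1 cluster, where they were 61.8% of its barcodes, and no other cluster held more than 4.55%. The rest of that cluster included deep barcodes that the rule leaves out for a B or T cell UMI: 28 and 24 had at least 2 marker genes and a Cd79a or Cd3e UMI. Among these 28 and 24 barcodes, 14 and 13 had exactly 1 such UMI. Counted over all clusters, barcodes with at least 2 marker genes and a Cd79a or Cd3e UMI numbered 37 and 24.

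**Figure D1:**
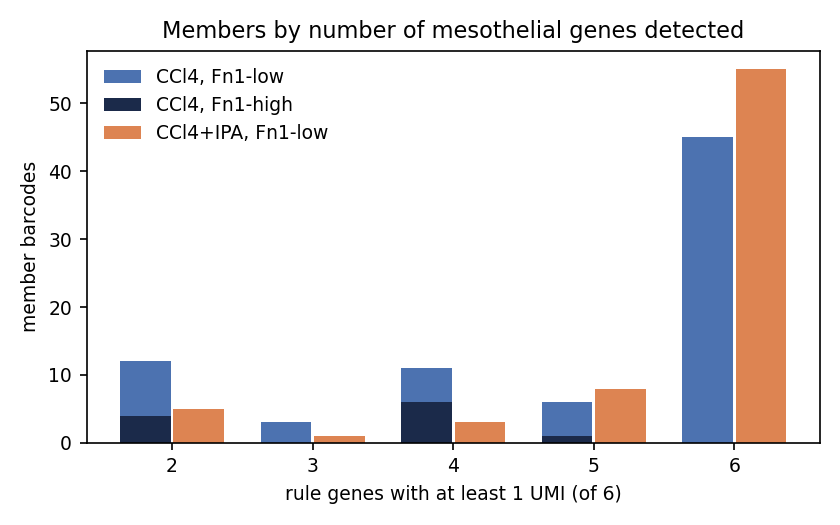
Number of kept barcodes without Cd79a or Cd3e (y axis) by how many of the 6 marker genes had a UMI (x axis, 2 to 6, the members), for the CCl4 and IPA libraries, with the Fn1-high barcodes described in the text drawn apart and the others called Fn1-low. Most members stand at 6 marker genes, 45 and 55 barcodes, and the Fn1-high barcodes stand at 2, 4 and 5 in the CCl4 library only.

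The label was checked with mesothelial genes that the rule did not read. Muc16, the membrane mucin that binds mesothelin, had UMIs in 50 of 77 and 63 of 72 members, at 622 and 748 CPM, against 8.63 and 11.1 CPM in the rest of the kept barcodes. Krt19, a simple-epithelium keratin, had 606 and 732 CPM in members and 11.7 and 11.0 in the rest. Igfbp5, a secreted binding protein of insulin-like growth factors, had 3173 and 3616 CPM in members and 43.3 and 41.4 in the rest. Bnc1, a zinc-finger factor of mesothelium and squamous epithelium, and Cldn15, a tight junction protein, were likewise present, each in 49 to 59 members of a library. Podxl, a sialomucin planned as a marker too, was sparse, with UMIs in 16 of 77 and 3 of 72 members. It had 23.8 and 4.10 CPM, against 0.436 and 0.676 in the rest. These genes were measured in the same cells that the rule chose, so their levels describe the members and test nothing.

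A set of 11 barcodes of the CCl4 library goes against much of the label. These are the members with at least 2500 CPM of fibronectin (Fn1) and at least 1000 UMIs, a class cut after the values had been seen, and are called Fn1-high here. Fn1, a matrix glycoprotein, ranged from 3002 to 13412 CPM in them, and the highest level in any other member of at least 1000 UMIs was 2111 CPM among CCl4 members and 1816 CPM among IPA members. No IPA member was Fn1-high, 0 of 72, which allows a share of up to 4.17% when the limit is set at 3 counts. Of the CCl4 members 14.3% were (7.35% to 24.1%). They were deep barcodes of 11909 to 40932 UMIs, and all 11 lay in the members' cluster.

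The Fn1-high members were low in most of the mesothelial genes and kept a few. Msln had a UMI in 1 of 11 and stood at 3.24 CPM, against 1193 CPM in the other 66 CCl4 members. Igfbp5 stood at 6.48 against 4156 CPM, Prg4 (lubricin, a surface lubricant) at 6.48 against 1730, and Muc16 and Krt18 had no UMI. Some marker genes were kept: Wt1 had a UMI in 11 of 11, at 301 against 362 CPM, Lrrn4 in 9 of 11, at 126 against 461 CPM, and Upk3b in 6 of 11, at 194 against 1194 CPM. Of the mesothelial genes that the rule did not read, Aldh1a2 stood at 178 against 144 CPM, Igfbp6 at 936 against 1682 and Krt19 at 123 against 756. No Fn1-high member had all 6 marker genes: 4 had 2, 6 had 4 and 1 had 5.

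Genes of fibroblast-like cells stood high in them instead. Col3a1, a fibrillar collagen, had 6562 CPM against 963 in the other CCl4 members, and Col1a1 had 2206 against 288. Enpp2, the enzyme autotaxin, had 745 against 2.01 CPM, and Prrx1, a homeobox factor of mesenchyme, had 211 CPM against none. Ccl2, which draws monocytes, had 985 against 51.3 CPM, and Pdgfra, a growth factor receptor of fibroblasts, had 295 against 45.2. The 12 stromal barcodes of the CCl4 library, which are not members and were taken by collagen, Pdgfra, Pdgfrb and Lrat UMIs, had 7029 CPM of Fn1, 8992 of Col3a1, 716 of Enpp2 and 237 of Wt1. The same stromal barcodes also held Aldh1a2 and Igfbp6, which the rule did not read, at 73.3 and 525 CPM. They had no UMI of Krt19 or Cldn15, which the rule did not read either. Of Krt19 and Cldn15 the Fn1-high members had 123 and 58.3 CPM. Nor had the stromal barcodes a UMI of Upk3b or Lrrn4, at 194 and 126 CPM in the Fn1-high members. As non-members, stromal barcodes carry fewer than 2 of the 6 marker genes, so the contrast in Upk3b and Lrrn4 is partly set by the rule. The markers of these 11 barcodes are thus mixed, with most mesothelial genes low and a few present, and they are called by their leading gene. Because they hold 308763 of the 1303791 member UMIs of the CCl4 library, list counts and the levels they move are given with and without them. A further 4 CCl4 members of 658 to 897 UMIs also reach 2500 CPM on 6 or 7 Fn1 UMIs, and were left with the others.

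**Figure D2:**
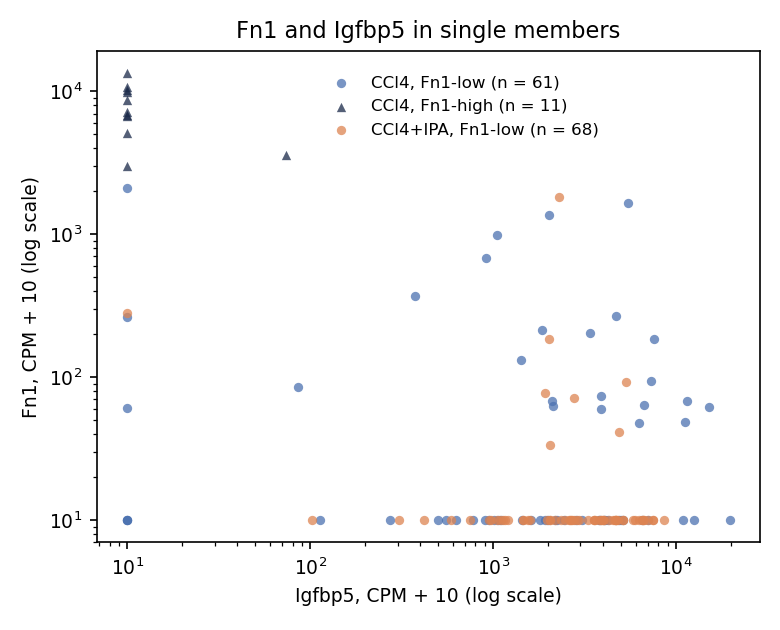
Fn1 level against Igfbp5 level of each member with at least 1000 UMIs, both on log axes of CPM with 10 added, by library, with all other members called Fn1-low. The 11 Fn1-high barcodes, all of the CCl4 library, lie at 3002 CPM of Fn1 or more, and 1 of them has any Igfbp5 UMI.

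Markers of leukocytes, endothelium and hepatocytes were lower among members than in the rest, while those of stellate cells and fibroblasts, smooth muscle and cholangiocytes were higher. Scrublet, a doublet caller, marked 2.70% and 3.16% of kept barcodes and 0 and 1 of the members. Ptprc, the pan-leukocyte gene, had a UMI in 18 and 24 members. The neutrophil list summed to 809 CPM in CCl4 members and 179 in IPA members, against 13216 and 13413 in the rest, and 297 of the 420 S100a8 UMIs of the CCl4 members were in 1 barcode. The T and NK cell list summed to 87.4 and 323 CPM, against 5417 and 7585 in the rest, and 47 of 54 Gzma UMIs of the IPA members were in 1 barcode. The phagocyte list summed to 73.6 and 210 CPM, with no UMI of Adgre1, Vsig4 or Fcgr1 in either library and 146 of 169 Lyz2 UMIs of the IPA members in 1 barcode. The stellate and fibroblast list summed to 4725 and 1051 CPM, and to 1968 in the CCl4 members without the Fn1-high barcodes, against 197 and 46.1 in the rest. The cholangiocyte list, which shares Krt7 and Krt19 with mesothelium, summed to 1214 and 1175 CPM against 271 and 99.9, and smooth muscle genes to 79.8 and 20.5 CPM against 33.7 and 12.9. The B cell list summed to 2714 and 3519 CPM, nearly all of it Cd74, against 15798 and 14034 in the rest. Endothelial genes summed to 63.7 and 81.0 CPM, with no UMI of Cdh5, Stab2, Lyve1 or Vwf in either library, and hepatocyte genes to 51.4 and 35.9 CPM. How far any of these lists takes part in a gene's difference was not tested.

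Across all genes with at least 20 UMIs over the members of both libraries, 707 of 9620 (7.35%) were at least 2-fold higher in the IPA members and 477 (4.96%) at least 2-fold lower, and the median log2 ratio was 0.06. Without the Fn1-high barcodes, 570 of 9191 (6.2%) were higher and 292 (3.18%) lower. Among the members with all 6 marker genes, 532 of 8713 (6.11%) were higher and 283 (3.25%) lower. In the rest of the kept barcodes the shares were 5.13% and 4.34%, with a median log2 ratio of 0.23. Past 2-fold is used below as a size and not as a call of significance. The count of every list below is to be read beside the all-gene shares given here.

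The surface genes of mesothelium include 5 that the rule read, so their levels in both libraries are partly set by the choice of members and are given as description. Over all members 1 of 18 measured surface genes was past 2-fold higher, against 7.35% of all genes, and 2 were past 2-fold lower, against 4.96%. The median log2 ratio was 0.27. With the Fn1-high barcodes set aside and the rule genes still counted, 0 of 17 were higher and 1 was lower, with a median of -0.08. The shares of all genes were then 6.2% and 3.18%. Gpm6a, a neuronal and mesothelial membrane glycoprotein, had 882 CPM in CCl4 members and 1376 in IPA members, a ratio of 1.56 (1.44 to 1.69), and 1150 in the CCl4 members without the Fn1-high barcodes, a ratio of 1.20 (1.11 to 1.30). Msln had 911 and 1152 CPM, a ratio of 1.26 (1.16 to 1.37), and without the Fn1-high barcodes 1193 and 1152, a ratio of 0.966 (0.889 to 1.05). So the direction of Msln turned with those 11 barcodes, as did that of Igfbp5, whose ratio went from 1.14 to 0.870. Podxl, the sialomucin podocalyxin, was lower in IPA members on few UMIs, at 23.8 and 4.10 CPM, 5.80-fold (2.05 to 22.6), and 6.37-fold (2.21 to 25.1) without the Fn1-high barcodes.

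Keratins and filaments were not read by the rule. None of the 7 measured was past 2-fold higher, against 7.35% of all genes. Only Des, the muscle filament desmin, was past 2-fold lower, against 4.96% of all genes, and it had 17.6 and 1.03 CPM. Krt8 had 310 and 546 CPM, and Krt18, with which it pairs in filaments, had 262 and 388. In the other 66 CCl4 members the levels were 405 for Krt8 and 344 for Krt18, and without the Fn1-high barcodes the list's median log2 ratio was 0.06.

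Among the transcription factors of mesothelium 3 of 12 were past 2-fold higher and 1 lower, with a median log2 ratio of 0.53, and 2 of 11 and 0 of 11 without the Fn1-high barcodes, with a median of 0.32. Wt1, itself a rule gene, had 347 and 639 CPM, a ratio of 1.84 (1.63 to 2.08), and 1.77 (1.55 to 2.02) without the Fn1-high barcodes, with a UMI in 67 members of each library. Gata4, a factor of lateral mesoderm, had 44.5 and 101 CPM, a ratio of 2.26 (1.62 to 3.18), which was 1.72 (1.23 to 2.43) without the Fn1-high barcodes. The others past 2-fold higher, Nr4a1 and Klf4, also belong to the immediate early genes described below.

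Complement genes stood higher in the IPA members in step. All 12 measured members of the list had a ratio above 1 with and without the Fn1-high barcodes, with median log2 ratios of 0.72 and 0.51, though only Cfb was past 2-fold and none without the Fn1-high barcodes. Over all genes the medians were 0.06 and 0.05, and for this list in the rest of the kept barcodes it was 0.07. The summed level of the list was 20654 CPM in CCl4 members, 24231 without the Fn1-high barcodes, and 36106 in IPA members.

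C3, the central component of the cascade, had 13157 and 24832 CPM, a ratio of 1.89 (1.85 to 1.92), and 1.55 (1.52 to 1.58) without the Fn1-high barcodes. In single members of at least 1000 UMIs, C3 ran from 0 over a median of 14273 to 39358 CPM in the CCl4 library, and from 135 over 24576 to 40541 in the IPA library. The ranges overlap almost wholly and the IPA median lies above the CCl4 upper quartile of 18415. C4b had 943 and 1677 CPM, a ratio of 1.78 (1.65 to 1.92), and C1s1, a protease of the classical pathway, had 1149 and 1889, a ratio of 1.64 (1.54 to 1.76). The ratios of C4b and C1s1 were 1.39 and 1.49 without the Fn1-high barcodes. Serping1, the inhibitor of that protease, differed least of these, at 1511 and 2112 CPM, a ratio of 1.40 (1.31 to 1.49).

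Acute phase and antimicrobial genes were mixed, with a median log2 ratio of 0.27. Of 10 measured, 2 were past 2-fold higher, against 7.35% of all genes, and 1 was lower, against 4.96%. The counts without the Fn1-high barcodes were 3 and 1 of 10, against 6.2% and 3.18%. Saa3, an acute phase apolipoprotein made outside the hepatocyte, had 5525 and 10285 CPM, a ratio of 1.86 (1.81 to 1.92), and 4222 and 10285 without the Fn1-high barcodes, a ratio of 2.44 (2.35 to 2.53). It was very uneven: 29.7% of its UMIs in CCl4 members came from 1 barcode, and single members ran from 0 to 59765 CPM in the CCl4 library and from 0 to 63622 in the IPA library, with medians of 1067 and 6522. Chil1, a chitinase-like lectin, had 163 and 630 CPM, a ratio of 3.85 (3.29 to 4.53). Slpi, an inhibitor of neutrophil elastase, had 4208 and 5434 CPM, a ratio of 1.29 (1.24 to 1.34). Hp, haptoglobin, was lower at 124 and 11.3 CPM, with 80 of its 162 UMIs in the CCl4 members in 1 barcode, and at 53.3 and 11.3 CPM without the Fn1-high barcodes.

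Matrix genes divided by kind. Of the small proteoglycans and their relatives 2 of 19 were past 2-fold higher, against 7.35% of all genes, and 7 were lower, against 4.96%. The counts without the Fn1-high barcodes were 1 and 4 of 18, against 6.2% and 3.18%. Dcn, the collagen-binding proteoglycan decorin, had 5473 and 5374 CPM, a ratio of 0.982 (0.947 to 1.02), and 1.27 (1.22 to 1.32) without the Fn1-high barcodes. Has1, a hyaluronan synthase, had 36.8 and 153 CPM, a ratio of 4.15 (2.98 to 5.87), and 3.38 (2.41 to 4.83) without the Fn1-high barcodes. Has1 was near absent from the rest, at 0.482 and 0.919 CPM. Prg4 had 1322 and 2087 CPM, a ratio of 1.58 (1.48 to 1.69), and 1.21 (1.13 to 1.29) without them.

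Fn1, the gene that set the Fn1-high barcodes apart, had 2029 CPM in CCl4 members and 28.7 in IPA members, 70.7-fold lower (48.8 to 107), on 2646 and 28 UMIs, and 19 of the 28 were in 1 barcode. With those barcodes set aside it had 185 and 28.7 CPM and was 6.44-fold lower (4.31 to 9.96). Other genes among the lowest ratios moved in the same way. Chl1, a neural adhesion molecule, was 21.5-fold lower (9.02 to 67.3) and then 5.68-fold (2.18 to 18.8), and Fndc1 had 277 and 18.5 CPM and then 62.3 and 18.5 CPM, 3.38-fold lower (1.97 to 6.06). Cxcl5, a neutrophil chemokine, was 21.9-fold lower (9.88 to 60.6) and then 1.14-fold (0.329 to 4.12). Fbn1, the microfibril protein fibrillin-1, was 4.43-fold lower (3.17 to 6.33) and then 1.34-fold (0.879 to 2.05). Enpp2 turned direction, from 178 and 11.3 CPM to 2.01 and 11.3 CPM, the latter on 2 and 11 UMIs.

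Collagens and their crosslinking enzymes were lower in IPA members in 17 of 18 genes, 7 of them past 2-fold, with a median log2 ratio of -0.58. When the Fn1-high barcodes were left out, 3 of 16 were past 2-fold and the median was -0.29. Col3a1 had 2289 and 348 CPM, 6.58-fold lower (5.88 to 7.39), and 963 and 348 without the Fn1-high barcodes, 2.77-fold lower (2.44 to 3.14). Col1a1 had 742 and 133 CPM, 5.57-fold lower (4.63 to 6.74), and was 2.16-fold lower (1.75 to 2.68) without them. Col1a2, whose chain joins that of Col1a1 in type I collagen, was 3.06-fold lower (2.77 to 3.38) and 1.31-fold (1.16 to 1.47) without them.

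The same collagens were also lower in the rest of the kept barcodes, where Col3a1 had 73.8 and 8.59 CPM and Col1a1 had 35.3 and 3.97. So these differences were not seen in members alone, but the rest is not free of mesothelial or Fn1-high barcodes. It holds the 37 and 24 barcodes with at least 2 marker genes that a Cd79a or Cd3e UMI kept out of the members. Of 18 and 1 barcodes at the Fn1-high level with a Col3a1 UMI and no Ptprc UMI, 7 and 0 were members, and the others lie in the rest. The rest also includes the 12 and 5 stromal barcodes, which held 177270 and 4873 UMIs. In the stromal barcodes Col3a1 stood at 8992 and 5951 CPM and Col1a1 at 5816 and 3489. The part of any of these barcodes in the difference of the rest, and the part of free RNA in either difference, was not tested. Col6a1, a chain of the microfibrillar collagen VI, was close to level at 926 and 840 CPM, a ratio of 0.907 (0.829 to 0.992). Lox, the enzyme that crosslinks collagen, had 61 UMIs in 26 CCl4 members and 2 UMIs in 2 IPA members, 22.8-fold lower (6.05 to 193).

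Basement membrane genes had a median log2 ratio of -0.57, with 0 of 12 past 2-fold higher and 4 lower, and the same counts without the Fn1-high barcodes, with a median of -0.45. Lamb1, a laminin chain, had 35.3 and 4.10 CPM, 8.60-fold lower (3.14 to 32.9), and Nid2, which links laminin to collagen IV, had 24.5 and 7.18, 3.42-fold lower (1.48 to 9.18). Lama5, the laminin chain of mature epithelium, went the other way at 48.3 and 93.3 CPM, a ratio of 1.93 (1.39 to 2.71). All of these rest on few UMIs.

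Genes of TGF-beta signalling and of mesenchymal transition showed no common direction, with a median log2 ratio of 0.08. Of 20 measured, 2 were past 2-fold higher, against 7.35% of all genes, and 5 were lower, against 4.96%. The counts without the Fn1-high barcodes were 2 and 2 of 20, against 6.2% and 3.18%, with a median of 0.09. The ligands Tgfb2 and Tgfb3 were level, at 160 and 157 CPM and at 88.2 and 87.2. Acta2, smooth muscle actin, had 46.8 and 18.5 CPM, 2.53-fold lower (1.48 to 4.56), and 2.45-fold (1.39 to 4.50) without the Fn1-high barcodes. Zeb2, a repressor of epithelial genes, had 114 and 10.3 CPM, 11.1-fold lower (5.89 to 23.7), and 4.41-fold (2.19 to 9.81) without them. Thbs1, an extracellular activator of TGF-beta, was higher at 85.1 and 177 CPM, a ratio of 2.08 (1.63 to 2.67), and 3.76 (2.71 to 5.30) without them. It was uneven: 5 barcodes held 83.8% of its UMIs in CCl4 members and 5 held 53.8% in IPA members. Its median over single members of at least 1000 UMIs was 0 CPM in both libraries.

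Lgals1, which encodes the sugar-binding lectin galectin-1, was lower in IPA members whichever barcodes were counted. It had 1740 and 103 CPM, 17.0-fold lower (13.9 to 20.9), and 1354 and 103 without the Fn1-high barcodes, 13.2-fold lower (10.8 to 16.3). Single members of at least 1000 UMIs ran from 0 over a median of 315 to 11258 CPM in the CCl4 library and from 0 over 60.5 to 872 in the IPA library. Thinned to 5000 UMIs, with 61 members left in each library, 77.0% of CCl4 members and 26.2% of IPA members had a UMI, and unthinned these shares were 85.7% and 51.4%. The rest of the kept barcodes did not share the difference, at 574 and 630 CPM.

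Of the growth factor genes 2 of 23 were past 2-fold higher, against 7.35% of all genes, and 6 were lower, against 4.96%. Their median log2 ratio was 0.08. The counts without the Fn1-high barcodes were 3 and 4 of 22, against 6.2% and 3.18%. Bmp4, a bone morphogenetic protein, had 41.4 and 115 CPM, a ratio of 2.77 (1.99 to 3.91), and Fgf9, which mesothelium secretes to the tissue beneath it in development, had 19.2 and 63.6, a ratio of 3.32 (2.05 to 5.51). Both stayed past 2-fold without the Fn1-high barcodes, at 2.16 and 2.53. Wnt4 and Rspo1, a WNT ligand and an enhancer of WNT signals, were within 2-fold at 239 and 282 and at 275 and 359 CPM. Hbegf, a ligand of the epidermal growth factor receptor, had 18.4 and 181 CPM, a ratio of 9.81 (6.38 to 15.7), with 59 of its 176 UMIs in IPA members in 1 barcode and 18 of 72 members with a UMI.

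Chemokines and cytokines turned direction with the Fn1-high barcodes. Over all members 1 of 13 was past 2-fold higher and 5 lower, with a median log2 ratio of -0.71. Without them 5 of 11 were higher and 1 lower, with a median of 0.50. Ccl2 had 272 and 139 CPM, 1.95-fold lower (1.60 to 2.40), but 51.3 and 139 without them, a ratio of 2.72 (1.96 to 3.83). Cxcl1, which draws neutrophils, had 522 and 847 CPM, a ratio of 1.62 (1.47 to 1.80), and 2.67 (2.34 to 3.05) without them. Il33, an alarmin of barrier cells, was lower in both settings, 2.10-fold (1.54 to 2.90) and 1.80-fold (1.29 to 2.54). A UMI of Il33 was found in 31.1% (19.9% to 44.3%) and 19.7% (10.6% to 31.8%) of members thinned to 5000 UMIs, and these intervals overlap. Thinned to 5000 UMIs, 42.6% and 67.2% of members had a Cxcl1 UMI, against 1.16% and 1.73% of the rest, and unthinned these were 44.2% and 65.3% of members.

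**Figure D3:**
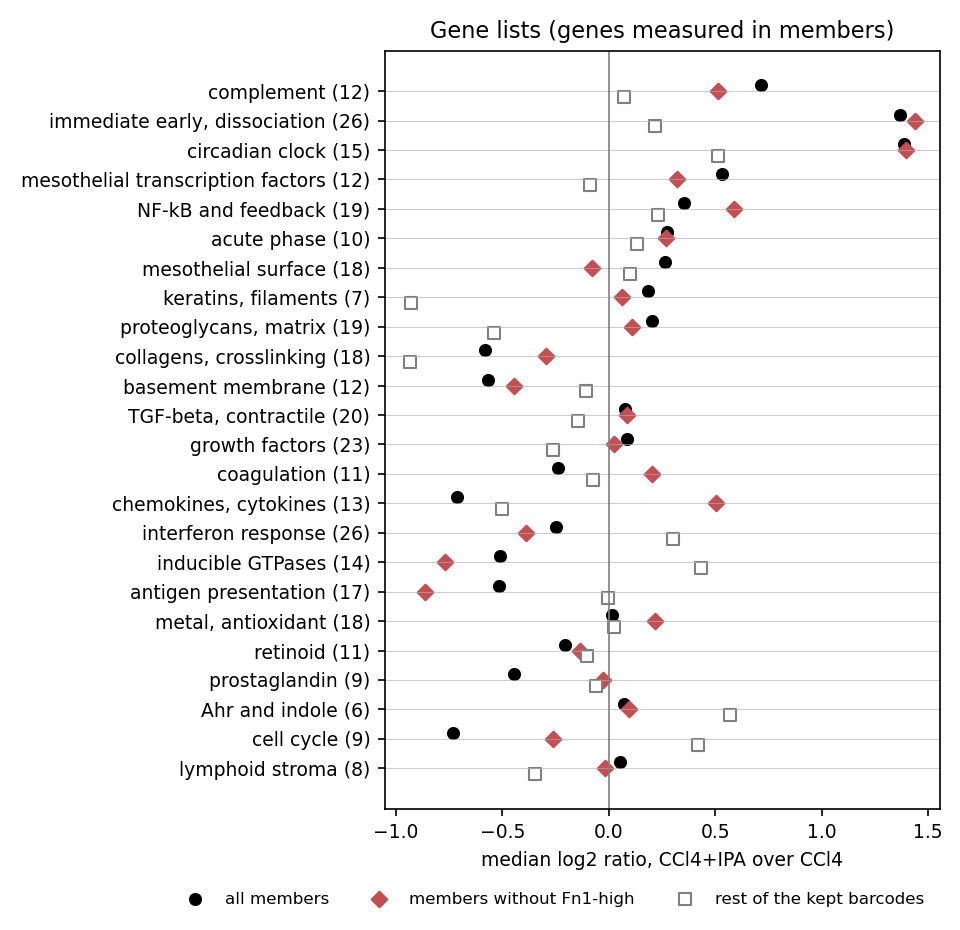
Median log2 ratio, CCl4+IPA over CCl4, of each gene list (number of genes measured in brackets) in all members, in members without the Fn1-high barcodes, and in the rest of the kept barcodes. Of the lists drawn, which leave out those of other cell types, immediate early and circadian clock genes have the highest medians over all members, 1.37 and 1.39, and the median of chemokines and cytokines goes from -0.71 to 0.50 when the Fn1-high barcodes are set aside.

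Immediate early and dissociation-related genes, which respond within minutes to stimulation and also to the handling of tissue, had the most genes past 2-fold of any list. All 26 measured genes were higher in IPA members, 17 of them past 2-fold, with a median log2 ratio of 1.37, and 17 of 26 without the Fn1-high barcodes with a median of 1.44. Their summed level was 11801 CPM in CCl4 members and 32938 in IPA members. In the rest of the kept barcodes, which went through the same preparation as the members of their library, the sums were 21464 and 26067 CPM and the list's median was 0.22. With 1 library each, the handling of a library and the treatment cannot be told apart.

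Atf3, a stress-induced repressor, had 278 and 1805 CPM, a ratio of 6.50 (5.80 to 7.30), and 7.61 (6.64 to 8.76) without the Fn1-high barcodes, while the rest had 402 and 334. Single members ran from 0 over a median of 94.0 to 1916 CPM in the CCl4 library and from 0 over 1677 to 6547 in the IPA library. Thinned to 5000 UMIs, 41.0% and 91.8% of members had an Atf3 UMI, and unthinned 63.6% and 86.1%. Egr1, a zinc-finger factor, had 726 and 2962 CPM, a ratio of 4.08 (3.79 to 4.40), and Fos, a subunit of AP-1, had 1568 and 5013, a ratio of 3.20 (3.04 to 3.37). Fosb had a ratio of 4.64 (4.31 to 4.99) and Nr4a1, an orphan nuclear receptor, of 5.49 (4.63 to 6.54). The heat shock genes of the list differed less: Hspa1a had 205 and 339 CPM, a ratio of 1.66 (1.41 to 1.96), and Hsp90aa1 had 552 and 634, a ratio of 1.15 (1.03 to 1.28). Fbxo33, a substrate receptor of a ubiquitin ligase, and Glul, glutamine synthetase, were among the highest ratios of the named genes, at 98.2 and 717 CPM (7.30, 6.04 to 8.89) and at 53.7 and 341 CPM (6.34, 4.89 to 8.33).

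Genes of NF-kB feedback were partly shared with that pattern. Of 19 measured, 5 were past 2-fold higher and 1 lower, with a median log2 ratio of 0.35, and the same counts held without the Fn1-high barcodes with a median of 0.59. Nfkbia, the inhibitor that NF-kB itself induces, had 558 and 1235 CPM, a ratio of 2.21 (2.02 to 2.43), and Nfkbiz had 304 and 915, a ratio of 3.01 (2.67 to 3.40). Icam1, an adhesion molecule for leukocytes, had 140 and 396 CPM, a ratio of 2.82 (2.36 to 3.38), against 67.5 and 128 CPM in the rest. Vcam1, its relative, was near level at 403 and 440.

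A list of circadian clock genes, put together after the values had been seen, had 11 of 15 past 2-fold higher and none lower, with a median log2 ratio of 1.39, and 13 of 15 higher without the Fn1-high barcodes. Its summed level was 650 and 1738 CPM in members and 432 and 710 in the rest, where its median was 0.51. Dbp, an output factor that the clock drives directly, had 66.7 and 259 CPM, a ratio of 3.89 (3.04 to 5.02), and was present in 34 of 77 and 55 of 72 members. Thinned to 5000 UMIs, 16.4% and 63.9% of members had a Dbp UMI, and unthinned 44.2% and 76.4%. Per3, a clock repressor, had 29.1 and 108 CPM, a ratio of 3.69 (2.53 to 5.51), and Nr1d1, the receptor Rev-erb alpha, had 101 and 291, a ratio of 2.88 (2.33 to 3.56). Clock itself had 55.2 and 45.1 CPM, a ratio of 0.817 (0.548 to 1.21). The labels do not state the hour of tissue collection, and with 1 library each the hour and the treatment cannot be told apart.

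Metallothioneins bind zinc and copper and are induced by metals, glucocorticoids and stress. Mt1 had 407 and 1520 CPM, a ratio of 3.73 (3.38 to 4.13), and Mt2 had 170 and 668, a ratio of 3.92 (3.36 to 4.59). Both stayed past 3-fold without the Fn1-high barcodes, at 3.73 and 3.32, while Mt1 in the rest had 56.0 and 55.8 CPM. Most of the other antioxidant genes of the list did not follow, since 3 of 18 were past 2-fold higher and 2 lower, with a median log2 ratio of 0.02.

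**Figure D4:**
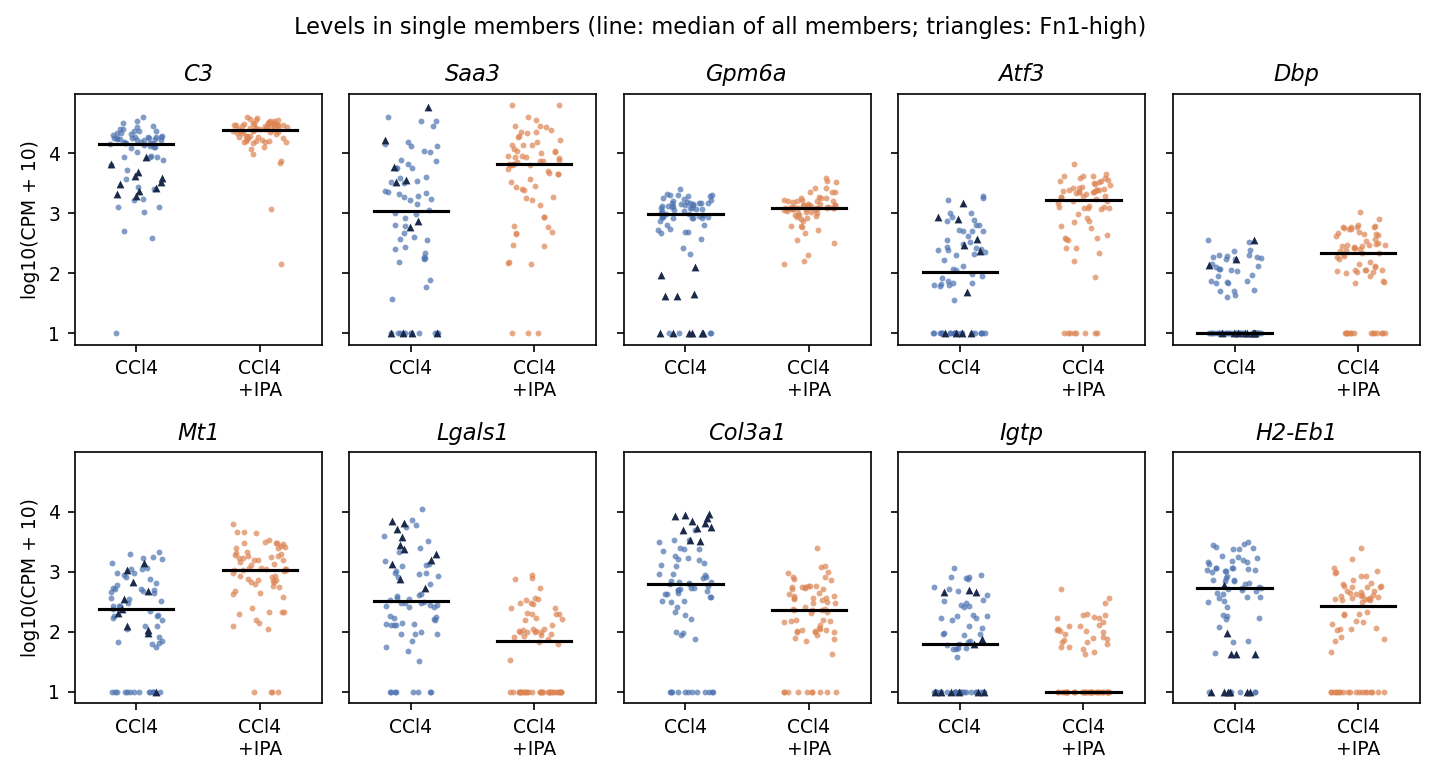
Levels of 10 genes in single members of at least 1000 UMIs, as CPM with 10 added on a log axis, by library, with the median of the drawn members of the library as a line and Fn1-high barcodes as triangles. The IPA median of Atf3 is 1677 against 94.0 CPM, and that of Lgals1 is 60.5 against 315.

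Interferon-inducible genes had a median below 0 in members and above 0 in the rest of the kept barcodes. The median log2 ratio of all genes was 0.06 in members and itself 0.23 in the rest. The interferon list had a median log2 ratio of -0.25 in members, with 2 of 26 past 2-fold higher and 3 lower. In the rest it had 0.30, close to that of all genes there. The inducible GTPases, a list put together after the values had been seen, had a median of -0.51 in members, with 0 of 14 higher and 4 lower, -0.77 without the Fn1-high barcodes with 5 lower, and 0.43 in the rest. These proteins attack the vacuoles of intracellular microbes and are induced mainly by interferon gamma.

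Igtp had 206 and 58.5 CPM, 3.52-fold lower (2.63 to 4.77), while the rest had 31.5 and 51.2. An Igtp UMI was found in 39.3% (27.1% to 52.7%) and 29.5% (18.5% to 42.6%) of members thinned to 5000 UMIs, and these intervals overlap. Unthinned the shares were 54.5% and 43.1%. Iigp1 had 393 and 110 CPM, 3.58-fold lower (2.90 to 4.45), and the rest had 21.2 and 32.3. A UMI of Iigp1 was in 57.4% and 32.8% of members thinned to 5000 UMIs, and in 58.4% and 54.2% unthinned. Gbp7, a guanylate-binding protein, had 171 and 92.3 CPM, 1.85-fold lower (1.44 to 2.39), and Irgm1 had 62.9 and 30.8, 2.04-fold lower (1.33 to 3.22). Gbp2 had 1002 and 759 CPM, 1.32-fold lower (1.21 to 1.45), but its medians over single members of at least 1000 UMIs went the other way, 473 and 702 CPM, and 5 barcodes held 33.7% of its UMIs in CCl4 members. Tgtp2 had 23.8 and 2.05 CPM, but it has a near-identical copy in Tgtp1 and reads could be split between them.

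The start regions of these GTPase genes are printed because the genes differ together, with the letters of 2 motifs in capitals: the gamma-activated sequence TTCNNNGAA (GAS) and the interferon-stimulated response element (ISRE), which reads GAAA, any 2 bases, GAAA. Both strands of the 250 bases before each start were searched in RefSeq promoters of build GRCm38.p6. Each stretch is written 5′ to 3′ on the gene's own strand.
Igtp, chr11:58199496-58199546, plus strand: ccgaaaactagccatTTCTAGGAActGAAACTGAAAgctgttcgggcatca
Irgm2, chr11:58214887-58214937, plus strand: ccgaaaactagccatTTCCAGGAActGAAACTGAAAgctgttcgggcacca
Irgm1, chr11:48871421-48871465, minus strand: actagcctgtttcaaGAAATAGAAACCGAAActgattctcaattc
Gbp7, chr3:142530215-142530307, plus strand: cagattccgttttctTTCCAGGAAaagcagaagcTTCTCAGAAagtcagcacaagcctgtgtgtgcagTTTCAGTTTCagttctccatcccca
Gbp2, chr3:142620589-142620628, plus strand: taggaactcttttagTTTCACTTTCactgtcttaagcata
Igtp and Irgm2 carry a GAS and an ISRE side by side, Irgm1 has 2 overlapping ISRE matches, and the ISRE of Gbp7 and Gbp2 lies on the opposite strand. Of 15 GTPase genes in the list 10 were matched to a promoter, of which 6 held a GAS, 9 an ISRE and 6 both. Among the 32851 promoters searched, which do not cover every chromosome, 7.02% held a GAS, 2.98% an ISRE and 0.332% both. A match describes letters and shows no binding. Irgm2, whose stretch is nearly that of Igtp, had 120 and 76.9 CPM, 1.56-fold lower (1.17 to 2.08).

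Antigen presentation genes were lower in IPA members in 14 of 17, with 1 past 2-fold and a median log2 ratio of -0.52, and 5 past 2-fold with a median of -0.86 without the Fn1-high barcodes. The exception in size was Cd74, the invariant chain, at 2514 and 3325 CPM, and 3228 and 3325 without the Fn1-high barcodes. H2-Eb1, a chain of MHC class II, had 687 and 369 CPM, 1.86-fold lower (1.65 to 2.11), and 877 and 369 without them, 2.38-fold lower (2.10 to 2.69). Single members ran from 0 over a median of 522 to 3090 CPM of H2-Eb1 in the CCl4 library and from 0 over 256 to 2454 in the IPA library. The rest of the kept barcodes, with many B cells, also went from 1642 to 885 CPM, and the part of free B cell RNA in the members' level was not tested. Psmb8, a subunit of the immunoproteasome, had 318 and 148 CPM, 2.16-fold lower (1.78 to 2.62). Class I differed less: H2-K1 had 2860 and 2305 CPM, 1.24-fold lower, and B2m 2975 and 2843, 1.05-fold lower (0.996 to 1.10).

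Clotting and fibrinolysis genes divided, with 3 of 11 past 2-fold in each direction, against 7.35% higher and 4.96% lower of all genes. Their median log2 ratio was -0.24. The counts without the Fn1-high barcodes were 3 higher and 0 lower of 9, against 6.2% and 3.18%, with a median of 0.20. F3, tissue factor, had 12.3 and 43.1 CPM, a ratio of 3.51 (1.93 to 6.69). Thbd, an anticoagulant receptor, had 120 and 36.9 CPM, 3.24-fold lower (2.24 to 4.80), and 1.85-fold (1.22 to 2.85) without the Fn1-high barcodes.

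Retinoid genes had none of 11 past 2-fold higher, against 7.35% of all genes, and 3 lower, against 4.96%. None of 9 was past 2-fold in either direction without the Fn1-high barcodes, against 6.2% and 3.18%. Aldh1a2, which makes retinoic acid and is a gene of mesothelium, had 152 and 91.3 CPM, 1.66-fold lower (1.29 to 2.16). Of the prostaglandin genes 1 of 9 was past 2-fold higher and 2 were lower, beside the same shares of all genes, with a median of -0.44. The counts without the Fn1-high barcodes were 2 and 0 of 7, with a median of -0.03. Hpgd, which breaks prostaglandins down, had 312 and 664 CPM, a ratio of 2.13 (1.87 to 2.41), against 28.7 and 8.62 CPM in the rest. Ptgis, which makes prostacyclin, had 680 and 498, a ratio of 0.733 (0.655 to 0.819).

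Indoles can act through the aryl hydrocarbon receptor, so its genes were read as a list of their own. Ahr had 43.0 and 41.0 CPM, a ratio of 0.955 (0.620 to 1.46), in 31 and 23 members. Cyp1a1, its classic target, had no UMI in the members of either library. Cyp1b1, another target, had 108 UMIs in 17 CCl4 members and none in IPA members, which makes it at least 26.9-fold lower when the 0 is set at 3 UMIs over the group, and at least 4.90-fold without the Fn1-high barcodes, which held 301 CPM. Tiparp, a repressor that the receptor induces, had 110 and 208 CPM, a ratio of 1.89 (1.52 to 2.35). The list had a median log2 ratio of 0.07 over 6 measured genes.

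**Figure D5:**
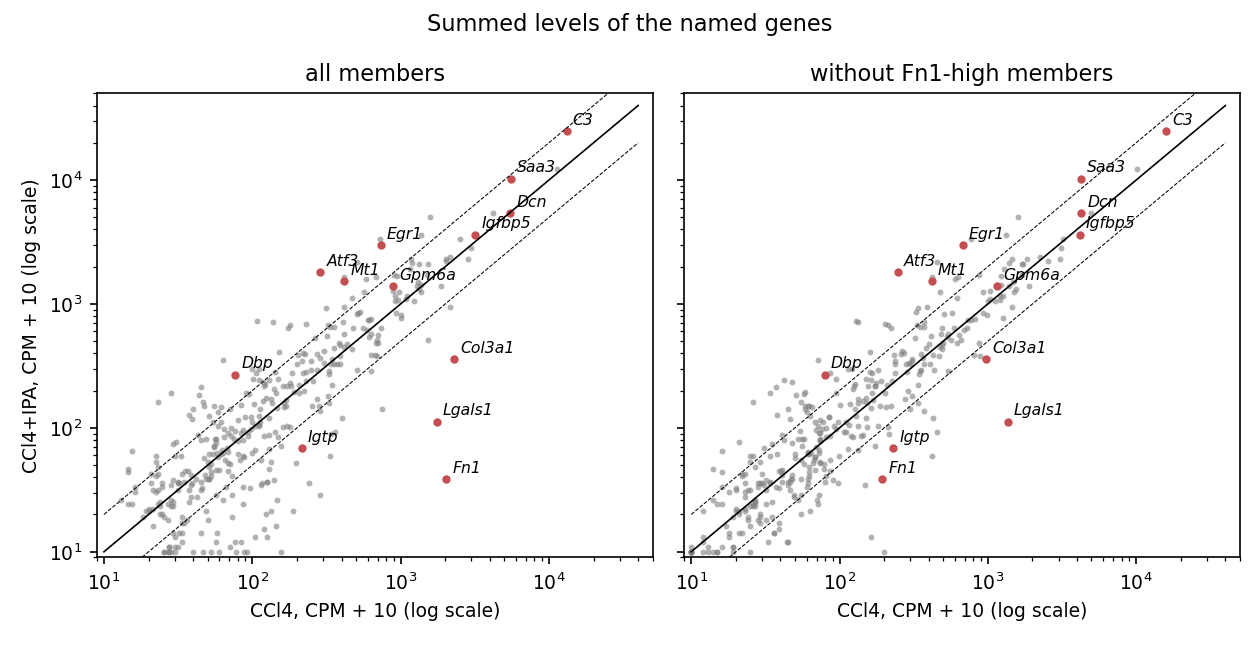
Level of each named gene in CCl4 members (x axis) against IPA members (y axis), in CPM with 10 added on log axes, with all members in the left panel and without the Fn1-high barcodes in the right panel, and dashed lines at 2-fold. Fn1 moves from 2029 to 185 CPM on the x axis between the panels, while Lgals1 moves from 1740 to 1354 and stays far below the diagonal.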

How the data were processed

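The deposited values are raw UMI counts of genes in barcodes. Per the file headers the authors used Cell Ranger 7.1.0, and mm9 is the build named per the submitters' processing notes. No source used here states whether intronic reads were counted. Members and lists were chosen with earlier results of these data known. Counts were summed over members per library and scaled to CPM. Intervals are Poisson (levels), conditional binomial (ratios) and Clopper-Pearson (shares) at 95%. A gene was measured with at least 20 UMIs over both libraries, and a 0 was set at 3 UMIs. The Fn1-high class, the clock and GTPase lists and 3 alternatives were chosen after values had been seen. Clustering used 2000 variable genes, 30 components, 20 neighbours and Leiden resolution 1 (scanpy 1.11.5), with Scrublet per library. Members called as doublets were kept. The script that computes the ratios was checked on simulated counts with known folds.

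Named genes are the 6 rule genes, the 25 leading genes of members over the rest, the 10 highest and 10 lowest ratios at 100 CPM and 50 UMIs whose member level reaches that of the rest in both libraries (4 and 4 others ranked apart) and measured list genes. Those printed were chosen from them after their values were seen. Stromal barcodes numbered 12 and 5. Some genes are not reported here.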

Additional observations from a re-analysis of the deposited data

How the results depend on the processing

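No paired analysis was possible because each group has 1 library. The log2 ratio of member shares was -0.12 and ran from -0.32 (no Ptprc UMI) to 0.27 (all 6 genes) over the alternatives, within its counting interval of -0.60 to 0.36. Genes past 2-fold higher numbered 1101 from the mean of single-cell levels, 322 with at least 50 UMIs and 1516 with at least 1. Genes past 2-fold lower numbered 283 with all 6 genes, 292 without the Fn1-high barcodes, 199 with at least 50 UMIs and 1052 with at least 1.

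List medians that moved were as follows. Surface genes were at -0.0248 with no Ptprc UMI, -0.13 with all 6 genes, -0.0769 without the Fn1-high barcodes and -0.00202 by the mean of single-cell levels, and keratins at -0.29, 0.10, 0.0641 and -0.0200. With all 6 genes, complement was at 0.49, chemokines at 0.75, coagulation at 0.43, prostaglandin genes at 0.0879 and antigen presentation at -0.91. Without the Fn1-high barcodes, complement was at 0.51 and chemokines at 0.50. Acute phase genes were at 0.60 with at least 3 marker genes.

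Single genes past 2-fold over all members that reversed are given here as log2 ratios. They were Aldh1a3 (0.81), Ccl5 (-0.0134) and Serpinb2 (0.54) by the mean of single-cell levels, and Ccl5 (-0.31), Gzma (-0.42) and Trbc2 (-0.19) with Cd79a and Cd3e admitted. With no Ptprc UMI they were Retnlg (2.01), S100a8 (0.0293), S100a9 (1.06), Serpinb2 (0.35) and Sfn (-1.23), and within the cluster Retnlg (1.78), S100a8 (0.39) and S100a9 (0.73). With all 6 genes they were Ccl7 (0.99), Cxcl2 (1.23), Enpp2 (3.45), Pdgfra (0.21), Retnlg (1.28), S100a8 (0.33) and S100a9 (0.58), and without the Fn1-high barcodes Ccl7 (1.17), Enpp2 (2.49) and Sox9 (0.17). Genes that turned direction from within 2-fold, such as Msln, Igfbp5 and Ccl2 without the Fn1-high barcodes, are not listed here. Apart from the alternatives that set Fn1-high barcodes aside, the cause was not tested. Genes of few UMIs, and the 4873 UMIs of the IPA stromal barcodes, limit what can be compared.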

Other observations

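Some genes had UMIs in few members and still took a place among the highest or lowest ratios. Sfn, an epithelial 14-3-3 protein, had 149 UMIs in IPA members against 17 in CCl4 members, and 143 of the 149 were in 1 barcode. Mpo and Prtn3, granule proteases and enzymes of immature neutrophils, had 190 and 152 UMIs in CCl4 members, of which 186 and 150 were in 1 barcode. These values describe single barcodes and not the members at large.

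Proliferation genes were rare. Mki67 or Top2a had a UMI in 10 of 77 CCl4 members and 3 of 72 IPA members, and both genes in 2 and 0. Of 9 measured cell cycle genes 0 were past 2-fold higher and 3 lower, and 0 and 1 of 6 without the Fn1-high barcodes. Of genes by which stroma organises lymphoid clusters 2 of 8 were past 2-fold higher, against 7.35% of all genes, and 1 was lower, against 4.96%, with a median log2 ratio of 0.05. Pdpn, podoplanin, had 363 and 315 CPM, a ratio of 0.868, and Cxcl13, which draws B cells, had 35.3 and 21.5, a ratio of 0.610 (0.346 to 1.04). Arhgef12, an exchange factor for the GTPase RhoA, had 1170 and 2298 CPM, a ratio of 1.97 (1.84 to 2.10), and 1.58 (1.48 to 1.69) without the Fn1-high barcodes.

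Beyond the members, 18 CCl4 barcodes and 1 IPA barcode reached the same Fn1 level with a Col3a1 UMI, no Ptprc UMI and at least 1000 UMIs, and 7 and 0 of them were members.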
